A study of Mus musculus with 2 samples.

Results

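The transcripts described here encode the TGF-beta and activin ligands, receptors and regulators Tgfb1, Tgfb2, Tgfb3, Inhba, Tgfbr1, Tgfbr2, Tgfbr3, Ski, Skil and Tgfbi, 10 of the 18193 genes that the array annotation names singly. They were listed by gene name, and every probe set annotated to exactly 1 of them was taken, 25 probe sets in all. No probe set named a member together with another gene. RNA came from the tissue between the digits of mouse hind limbs at stage E13.5, in mid-gestation. One array was hybridised for embryos homozygous for Hammer toe, a mutant with webbed digits, and 1 array for wild type of the B6 strain. The labels name no background strain for Hammer toe, so a strain difference and the mutation cannot be told apart. The series' design text gives 15 embryos for each genotype, as 3 sets of 5 littermates, and does not say how they were pooled on the 2 arrays. There was thus 1 value per genotype, no error between samples and no test.

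TGF-beta ligands are secreted in a latent form and, once freed, bind the type II receptor Tgfbr2, which activates the type I receptor Tgfbr1. The activated receptor phosphorylates Smad proteins, which enter the nucleus and change transcription, while Ski and Skil bind the Smads and repress their targets. Activins, dimers of inhibin beta chains such as the Inhba product, signal through their own receptors to the same Smads. In chick, TGF-beta or activin placed between the digits induces ectopic cartilage there, and in mice combined loss of Tgfb2 and Tgfb3 function impairs interdigital cell death.

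Of the 10 genes, Inhba differed most. Its transcript was lower in Hammer toe, by 1.69-fold, and it was the single member at 1.5-fold or more, a size that 3.56% of all measured genes reached. With a pseudocount in place of the intensity floor, or with the floor at the 75th percentile, no member reached that size. Read from their brightest probe sets, Skil, Tgfbr1 and Tgfbi were lower by smaller amounts. Tgfb1, Tgfb2, Tgfb3, Tgfbr2, Tgfbr3 and Ski, read in the same way, each differed by at most 1.07-fold. Skil and Tgfbr1 each also had a probe set that was higher in Hammer toe. The promoters of Inhba, Tgfbi and Tgfb2 are shown for the member that differed most and for the 2 members read by 4 probe sets that all went the same way, downward for Tgfbi and upward for Tgfb2. Each is the 250 bases before the annotated start in RefSeq (GRCm38.p6), at chr13:16011601-16011850 on the plus strand for Inhba, chr13:56609336-56609585 on the plus strand for Tgfbi and chr1:186705990-186706239 on the minus strand for Tgfb2. Capitals mark CAGAC or its reverse complement, the short Smad-binding element.
Inhba: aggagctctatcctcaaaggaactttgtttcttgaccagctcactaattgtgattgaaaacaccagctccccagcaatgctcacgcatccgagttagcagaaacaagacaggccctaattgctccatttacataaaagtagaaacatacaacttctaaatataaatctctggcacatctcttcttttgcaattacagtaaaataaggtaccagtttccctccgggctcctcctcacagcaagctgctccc
Tgfbi: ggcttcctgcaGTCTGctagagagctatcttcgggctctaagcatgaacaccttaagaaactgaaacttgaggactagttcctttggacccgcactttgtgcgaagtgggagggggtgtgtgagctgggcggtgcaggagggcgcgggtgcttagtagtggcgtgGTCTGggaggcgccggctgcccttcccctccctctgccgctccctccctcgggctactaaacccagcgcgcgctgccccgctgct
Tgfb2: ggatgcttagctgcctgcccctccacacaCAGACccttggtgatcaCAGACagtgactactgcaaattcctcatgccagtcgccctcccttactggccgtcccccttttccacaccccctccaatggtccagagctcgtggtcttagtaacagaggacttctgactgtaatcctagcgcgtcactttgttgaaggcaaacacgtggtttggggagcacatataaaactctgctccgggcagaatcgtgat

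The Tgfbi window held 2 matches, whose outermost bases lie 239 and 85 bases before the start, and the Tgfb2 window 2, at 221 and 204 bases. The Inhba window held none, which says only that these letters are not in it. Among all 32851 promoter windows of this length in the table, 42.2% held at least 1 match and 11.7% at least 2, so matches are common. The AP-1 element TGANTCA, searched on both strands, was in none of the 3 windows and in 6.75% of all windows. Windows were found for 7 of the 10 genes.

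Intensities are MAS5 values on a linear scale. Low MAS5 values are noisy, so a floor of 78.1, the median over both arrays without control probe sets, was used. Probe sets that exceeded it on at least 1 array are called measured. That kept 20 of the 25 probe sets and all 10 genes, and none of the 20 had an array under the floor, so no ratio is a bound. Both arrays had been scaled to the same trimmed mean, 500.003, which hides any change common to most transcripts. The array for Hammer toe had a median of 78.3 and the array for wild type 77.8. The labelled tissue carried its markers: Tbx4, a gene of the hind limb, read 2558 in Hammer toe and 2812 in wild type, and Aldh1a2, which makes retinoic acid in interdigital mesenchyme, read 11474 in Hammer toe and 13129 in wild type. Tbx5, a gene of the fore limb, was under the floor, at 34.6 in Hammer toe and 37.9 in wild type.

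**Figure D1:**
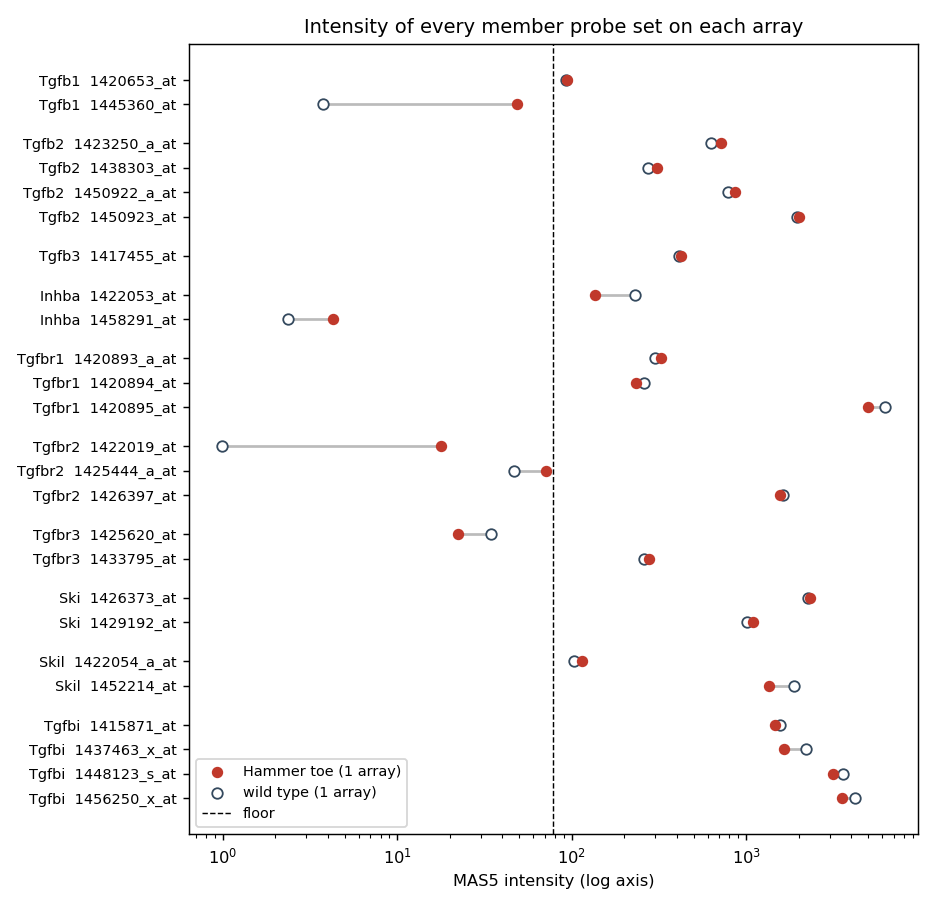
MAS5 intensity on a log axis for all 25 member probe sets, with 1 point per array (filled, Hammer toe; open, wild type) and a dashed line at the floor of 78.1. Most pairs of points above the floor nearly coincide. Among these pairs, Inhba 1422053_at, Skil 1452214_at, Tgfbi 1437463_x_at and Tgfbr1 1420895_at lie furthest to the left in Hammer toe relative to wild type. Of the 5 probe sets under the floor on both arrays, Tgfbr2 1422019_at and Tgfb1 1445360_at have points far apart, to the right in Hammer toe.

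Across the 20 measured probe sets, 11 were higher and 9 lower in Hammer toe, with a median log2 ratio (Hammer toe over wild type) of 0.02 and a range from -0.76 to 0.20. The median over all 20995 measured probe sets with 1 gene was 0.00. One member probe set was at 1.5-fold or more, against 3.9% of all measured probe sets. Past a smaller size, a log2 ratio of 0.32 in either direction, 4 of the 20 were lower and none higher, against 7.77% of all measured probe sets lower and 9.07% higher. Read from the brightest probe set of each gene, 5 members were higher and 5 lower, with a median log2 ratio of -0.02 against 0.01 over 11621 measured genes. At that level 1 of 10 was at 1.5-fold or more, where 3.56% of all measured genes were. Past the smaller size 3 of 10 were lower (6.33% of all genes) and none higher (8.47%). The 4 probe sets past the smaller size belong to Inhba, Skil, Tgfbi and Tgfbr1, and that of Tgfbi is not its brightest.

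**Figure D2:**
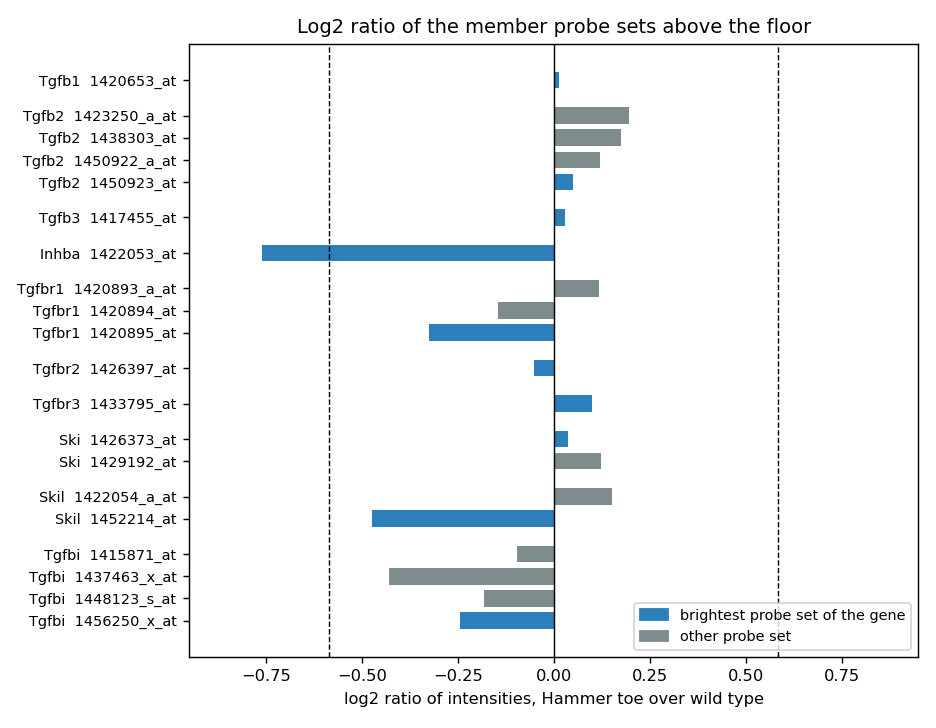
Log2 ratio of intensities, Hammer toe over wild type, for the 20 measured member probe sets, with bars from 0, the brightest probe set of each gene in blue and dashed lines at 1.5-fold. The bar of Inhba alone crosses a dashed line, all 4 bars of Tgfbi point down and all 4 of Tgfb2 point up.

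The ligand genes of the TGF-beta family proper differed little. Tgfb2 encodes the ligand that, with Tgfb3, is tied to interdigital regression in mice. Its 4 probe sets read 2015, 858, 721 and 308 in Hammer toe, against 1946, 789, 629 and 273 in wild type. All 4 were higher in Hammer toe, by log2 ratios of 0.05, 0.12, 0.20 and 0.17, with a mean of 0.14 ± 0.07 (SD over 4 probe sets, which share the transcript and are not replicates). Each lay within the range that held 95% of probe sets of like brightness. That range reached a log2 ratio of 0.67 in either direction for probe sets whose brighter array read up to 200, 0.53 from 200 to 1000 and 0.32 above 1000. Tgfb3, on its single probe set, read 420 in Hammer toe and 412 in wild type, a log2 ratio of 0.03. Tgfb1, the ligand best known for fibrosis and immune control, was just above the floor, at 93.9 in Hammer toe and 93.0 in wild type, a log2 ratio of 0.01.

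Inhba, which encodes the beta A chain of activin A, read 136 in Hammer toe and 230 in wild type. The log2 ratio was -0.76, or 1.69-fold lower. Among the 9071 measured probe sets whose brighter array read 200 to 1000, 1.63% were at least as far apart in either direction. Inhba lies near the dim edge of that class, and dimmer probe sets spread more widely. The range that held 95% of probe sets reading up to 200 reached 0.67. The Inhba ratio rests on 1 probe set, because the other one of Inhba was under the floor on both arrays, at 4.26 in Hammer toe and 2.35 in wild type. With a pseudocount of 78.1 added to every value in place of the floor, the log2 ratio was -0.53, short of 1.5-fold. The Hammer toe value is less than 2-fold above the floor, and no member reached 2-fold, where 0.414% of all measured probe sets stood.

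Of the receptor genes, Tgfbr1 had measured probe sets in both directions. It encodes the type I receptor kinase, and its brightest probe set read 5002 in Hammer toe and 6266 in wild type, a log2 ratio of -0.33. Among 6800 measured probe sets with a brighter array above 1000, 4.84% were at least that far apart. Its other 2 probe sets were designed from the same sequence record and differed less and in both directions, with 234 in Hammer toe against 259 in wild type (log2 ratio -0.14) for 1 and 325 in Hammer toe against 300 in wild type (log2 ratio 0.12) for the other. The mean over the 3 was -0.12 ± 0.22 (SD over 3 probe sets). So a lower Tgfbr1 signal was seen on 2 of its 3 probe sets. Tgfbr2, the type II receptor kinase, read 1561 in Hammer toe and 1618 in wild type on its 1 measured probe set, a log2 ratio of -0.05. Tgfbr3, the co-receptor betaglycan that presents ligand to the type II receptor, read 276 in Hammer toe and 258 in wild type, a log2 ratio of 0.10.

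On their brightest probe sets, the nuclear repressor genes pointed in opposite directions. Skil encodes SnoN, a repressor of Smad targets that is itself induced by TGF-beta. Its brightest probe set read 1344 in Hammer toe and 1866 in wild type, a log2 ratio of -0.47 or 1.39-fold lower. In its brightness class, 1.56% of measured probe sets were at least as far apart. The other Skil probe set, close to the floor, read 115 in Hammer toe and 103 in wild type, a log2 ratio of 0.15, so the 2 probe sets of Skil point in opposite directions. Averaged over both, the log2 ratio was -0.16. Ski, the related repressor, read 2318 in Hammer toe against 2261 in wild type on its brightest probe set, and 1093 in Hammer toe against 1004 in wild type on the other. These are log2 ratios of 0.04 and 0.12, both slightly higher in Hammer toe.

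Tgfbi encodes a secreted matrix protein that TGF-beta induces and that binds collagens and integrins. Its 4 probe sets read 3536, 3152, 1636 and 1463 in Hammer toe, against 4189, 3577, 2203 and 1564 in wild type. All 4 were lower in Hammer toe, by log2 ratios of -0.24, -0.18, -0.43 and -0.10, with a mean of -0.24 ± 0.14 (SD over 4 probe sets). The largest of these differences, 1.35-fold, came from a probe set of the _x_at type, which can bind related transcripts. In its brightness class, 2.09% of measured probe sets were at least as far apart, against 44.6% for the probe set nearest to no difference. The brightest probe set of Tgfbi, at -0.24, is of the _x_at type too. With probe sets of the _x_at, _s_at and _a_at types left out, Tgfbi was at -0.10. No Tgfbi probe set reached 1.5-fold. In 5134 genes for which several probe sets exceeded the floor in both genotypes, the log2 ratios within a gene had a pooled SD of 0.21. The SD within Tgfbi, 0.14, was below this pooled value, and that within Skil, 0.44 over 2 probe sets, was above it.

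**Figure D3:**
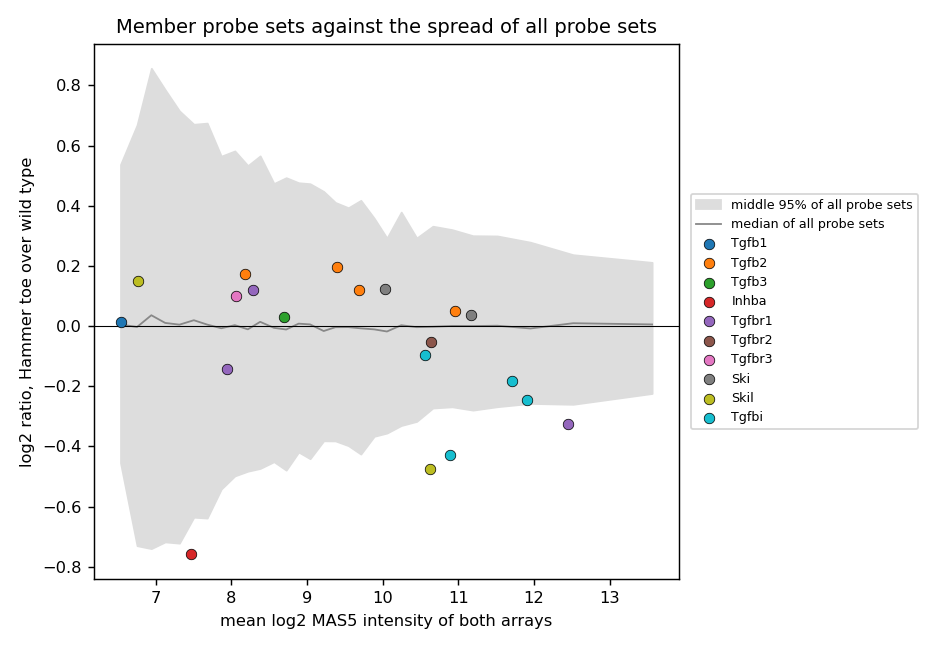
Log2 ratio of each measured member probe set against its mean log2 intensity. The grey band holds the middle 95% of all probe sets that exceeded the floor in both genotypes, in 30 bins of intensity. Inhba at -0.76, Skil at -0.47, Tgfbi at -0.43 and Tgfbr1 at -0.33 lie below the band and the other 16 points lie inside it.

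Other genes of the pathway were taken in 6 lists by role. Of 57 listed genes, 54 had a probe set naming them alone and 41 were measured on their brightest probe set. Of these 41, 24 were higher and 17 lower in Hammer toe, with a median log2 ratio of 0.04. Only Postn was at 1.5-fold or more, and none was lower by that size, where 3.56% of all measured genes passed 1.5-fold in either direction. Postn (periostin, a matrix protein induced by TGF-beta) read 853 in Hammer toe and 547 in wild type, 1.56-fold higher, and it too fell short of 1.5-fold with the pseudocount.

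In the list of extracellular antagonists and co-receptors 3 of 7 genes were measured, Fst, Bambi and Eng, and in the list of other ligands 2 of 7, Inha and Gdf11. All 5 had a log2 ratio above 0, as did 51.7% of all measured genes, and none was at 1.5-fold on its brightest probe set. Bambi and Eng were each at 0.05. Fst encodes follistatin, which binds activin and blocks it, and read 962 in Hammer toe and 701 in wild type on its brightest probe set, 1.37-fold higher. Its other probe set read 656 in Hammer toe and 418 in wild type, a log2 ratio of 0.65. The difference on the brightest probe set, a log2 ratio of 0.46, lay inside the range of 0.53 that held 95% of probe sets of like brightness, and that on the other lay outside it. Inha, whose product pairs with beta chains to form inhibin, an activin antagonist, read 169 in Hammer toe and 121 in wild type, 1.40-fold higher on a single probe set. Its log2 ratio of 0.49 lay inside the range of 0.67 for its brightness, and 8.47% of all measured genes were higher by at least the smaller size. The activin receptor genes Acvr2a, Acvr1b and Acvr2b had log2 ratios of 0.19, 0.05 and -0.03. Acvrl1, a type I receptor of vessels, was under the floor in Hammer toe (75.6) and just above it in wild type (86.3), a bound of -0.14. Of the 5 receptor genes measured in that list, 3 were higher and 2 lower. Inhbb, the other main beta chain gene, was under the floor on both arrays, at 33.1 in Hammer toe and 16.2 in wild type.

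In the remaining lists no gene but Postn was at 1.5-fold on its brightest probe set. All 14 genes of Smads and their regulators were measured, 6 higher and 8 lower, with a median log2 ratio of -0.01. On their brightest probe sets Rnf111 and Smurf1, both ubiquitin ligases of the pathway, were lowest at -0.19 and -0.17. The other Smurf1 probe set was higher, at 114 in Hammer toe and under the floor in wild type (50.1), a bound of 0.54. The effectors Smad2, Smad3 and Smad4 were at 0.15, -0.02 and -0.04. Smad7, which blocks the receptors in a negative feedback loop, gave 0.08 on its brightest probe set by mean intensity. Its _x_at probe set gave -1.71, reading 237 in Hammer toe and 773 in wild type. Of 7 genes that store or activate latent TGF-beta, 3 were higher and 4 lower, and Ltbp4 and Thbs1 were furthest from wild type at -0.19 and -0.16. Of 10 measured genes that TGF-beta induces in many cells, 7 were higher and 3 lower, where 51.7% of all measured genes were higher. The median of the 10 was 0.06, and Tgfb1i1, a focal adhesion adaptor, came next to Postn at 0.39. Tgfbi and Skil, TGF-beta-induced genes among the members, were both lower on their brightest probe sets. The other Skil probe set was higher, at 0.15, and Tgfbi was at -0.10 with probe sets of the _x_at, _s_at and _a_at types left out. The growth factor gene Gdf11 was at 0.24 and the receptor adaptor gene Tgfbrap1 at 0.13.

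**Figure D4:**
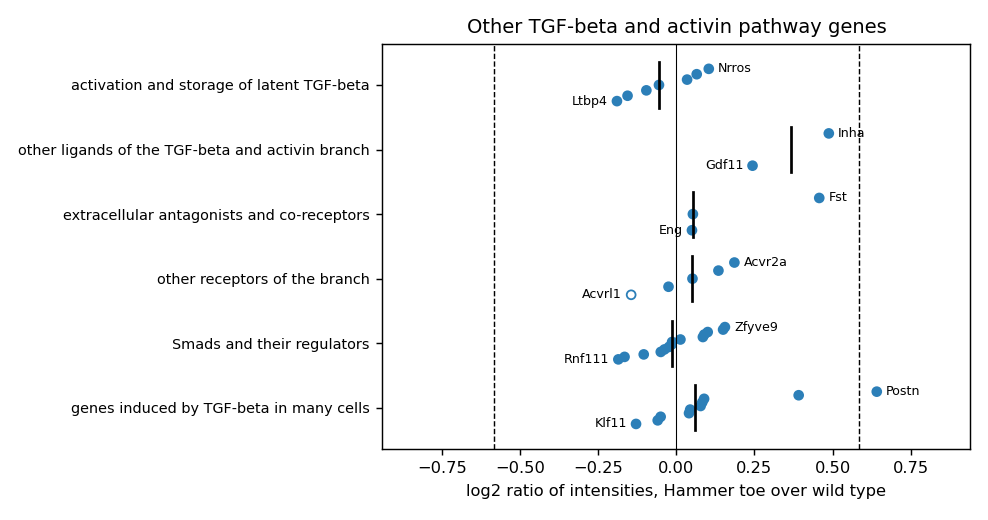
Log2 ratio, Hammer toe over wild type, of the 41 measured genes in the 6 other pathway lists, with 1 point per gene, the lowest and the highest gene of each list named, a black bar at the list's median and dashed lines at 1.5-fold. Open points are bounds. Postn alone lies past a dashed line, and Fst and Inha stand to the right of the other ligand and antagonist genes.

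Markers of other cells in the tissue differed between the 2 arrays too. For scale, 51.7% of all measured genes were higher and 48.3% lower in Hammer toe, and 3.56% were at 1.5-fold or more in either direction. Of 11 cartilage markers 10 were lower in Hammer toe, with a median log2 ratio of -0.56 and a summed intensity of 10746 in Hammer toe against 16507 in wild type. Of 8 surface ectoderm markers 7 were higher, with a median of 0.48 and sums of 12141 in Hammer toe and 9487 in wild type. Of 8 macrophage markers 7 were higher, with a median of 0.51 and sums of 3582 in Hammer toe and 2707 in wild type. Of 7 muscle markers 5 were measured and 3 of these higher, with sums of 1269 in Hammer toe and 814 in wild type, while Pax7 and Myf5 were under the floor. Erythroid markers were lower in all 5 measured, with sums of 49621 in Hammer toe and 57801 in wild type. Joint and tendon markers had a median of -0.09, with sums of 5271 in Hammer toe and 5689 in wild type. Endothelial markers had a median of -0.06, with sums of 3050 in Hammer toe and 2826 in wild type. All 5 hind limb mesenchyme markers were lower, with a median of -0.14 and sums of 31976 in Hammer toe and 35148 in wild type. Of 7 interdigital markers 4 were lower and 3 higher, with a median of -0.17 and sums of 28881 in Hammer toe and 32201 in wild type. The largest differences in that list were those of the T-box genes Tbx3 and Tbx2, higher in Hammer toe by log2 ratios of 0.80 and 0.70, the only members past 1.5-fold there. Over all marker lists 61 genes were measured, and 9 were higher and 6 lower by 1.5-fold or more. Cartilage markers made up 5 of the lower ones and macrophage markers 3 of the higher ones. Of 5 Schwann cell and nerve markers 2 were measured, Mbp and Sox10, with sums of 296 in Hammer toe and 164 in wild type. Mbp read 217 in Hammer toe and 137 in wild type. Sox10 was at the floor in Hammer toe (78.1) and under it in wild type (27.3), a bound of 0.00. In bulk tissue, fewer cells of a type and less RNA per cell cannot be told apart. The part of these cells in the lower Inhba, Skil, Tgfbr1 and Tgfbi and in the higher Postn was not tested.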

How the data were processed

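Per the labels' protocols, 250 ng of RNeasy-purified total RNA went into each biotinylated cRNA. The authors deposited 1 linear intensity per probe set and array. Per the submitters' processing notes, MAS5 was run in Affymetrix Expression Console (version not given in the sources used here). Detection calls were not used here. From 45101 probe sets, 64 controls were left out. The platform annotation, with symbols updated by gene ID through RefSeq (GRCm38.p6), gave 1 gene to 34945. For 204 of these the ID had no match and the annotation's symbol was kept.

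Log2 ratios were computed after lower values had been set to the floor. The summed intensities of the markers used the deposited values of the measured genes, including values under the floor. Each gene was represented by its brightest probe set, by mean intensity. With 1 array per genotype, differences were described by size at 1.5-fold, and the number of arrays limits the precision. The genes named were all members, the pathway genes at 1.5-fold or more and otherwise the 2 furthest from 0 in each list; further pathway genes are examples chosen after their values were seen. A likeness of pattern over 2 arrays has no meaning, so no gene is named for it. Members, lists and alternatives were chosen with earlier results of these data known. The calculation was tested on simulated data. The alternatives were 3 other scalings, other floors, a pseudocount, other sizes, probe set averaging and leaving out shared probe sets. Python 3.11.15, pandas 2.3.3 and statsmodels 0.14.6 were used.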

Additional observations from a re-analysis of the deposited data

How the results depend on the processing

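No paired analysis was possible because each genotype has 1 array. Median centring, quantile normalization and lowess correction moved no member count, and the median of all genes by at most 0.01. Of 145 member probe set values under the alternatives, 144 stayed within 0.21 (the pooled SD between probe sets of a gene) of the value reported. The 1 that moved further was Inhba with the pseudocount. Among those that stayed within 0.21, 1 had the other sign: Tgfb1, at -0.0028 with quantile normalization. Other floors and leaving out shared probe sets could not move the ratio of a probe set they kept, because none was a bound. A width of 0.21 also exceeds most member log2 ratios, so this count says little about stability. Inhba ranged from -0.77 to -0.53, lowest in size with the pseudocount, and was not measured with the floor at the 75th percentile, an intensity of 498. Skil was at -0.16 when its probe sets were averaged, and Tgfbi at -0.10 without shared probe sets. Lower members at 1.5-fold numbered 0 (probe sets and genes) with that floor, which left 6 genes, and with the pseudocount. A floor at the 25th percentile gave 2 higher and 2 lower member probe sets, and no floor 4 and 2, since values under 78.1 then entered. Past a log2 ratio of 0.32 there were 4 lower probe sets and 3 lower genes, and at 2-fold 0. Of other pathway genes, 5 were higher and 2 lower at 1.5-fold with the floor at the 25th percentile and 6 and 2 with none; with the pseudocount and at 2-fold 0 were higher, past a log2 ratio of 0.32, 4 were higher, and with probe sets averaged 1 was lower.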

Other observations

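The 5 member probe sets that exceeded the floor on neither array are listed without a ratio, and the one of Inhba is given above. Tgfb1 1445360_at read 48.8 in Hammer toe and 3.75 in wild type. Tgfbr2 1422019_at read 17.9 in Hammer toe and 0.990 in wild type, and Tgfbr2 1425444_a_at read 71.4 in Hammer toe and 46.7 in wild type. Tgfbr3 1425620_at read 22.4 in Hammer toe and 34.5 in wild type. The brighter probe sets of these 3 genes stood at log2 ratios of 0.01, -0.05 and 0.10. Several secreted regulators were also under the floor on both arrays: Nodal, at 45.3 in Hammer toe and 7.33 in wild type, Lefty1, at 53.1 in Hammer toe and 11.4 in wild type, and Fstl3, a follistatin relative, at 70.2 in Hammer toe and 66.5 in wild type.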
